A study of Bos taurus with 24 samples.

Results

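The microRNA miR-126 was followed through both of its arms, bta-miR-126-5p and bta-miR-126-3p, in mammary gland biopsies of dairy cows. The rows with exactly these names were taken from the deposited tables, so the arms are 2 of the 796 miRNAs listed, and both had counts in all 22 libraries. Biopsies of Holstein (HOLS) and Montbéliarde (MONT) cows were taken before feed restriction (CONT, day 0) and at its end (REST, day 6), and small RNA was sequenced from each. The 4 groups were HOLS CONT and HOLS REST with 5 libraries each and MONT CONT and MONT REST with 6 libraries each, the CONT and REST libraries of a number coming from the same cow. Before restriction the cows were fed freely, and the labels put the allowance in REST at 60% of the net energy requirement, while the study's methods give another share. The cows were multiparous and in mid-lactation, carried no genetic modification, and gave biopsies of whole tissue from alternating rear glands of the udder. A further HOLS cow in the labels was not analysed here.

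A miRNA is a short RNA that pairs with messenger RNAs and lowers their stability or translation. It is cut from a hairpin precursor whose 5′ and 3′ sides give the -5p and -3p arms, and one or both arms can be loaded into the silencing complex. MiR-126 is the classical miRNA of endothelial cells, which line blood vessels. Its hairpin is hosted by EGFL7, a gene for a secreted factor of the vessel wall, and the bovine RefSeq annotation (ARS-UCD2.0) places MIR126 within the span of EGFL7, with AGPAT2, which encodes an enzyme of phospholipid and triglyceride synthesis, as the next coding gene on one side. In other species miR-126-3p is known to support signalling of vascular endothelial growth factor by lowering the inhibitors SPRED1 and PIK3R2, and miR-126-5p is known to sustain endothelial proliferation through DLK1. In the lactating gland a dense capillary bed supplies the milk-secreting epithelium.

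The libraries held between 6087865 and 18913916 miRNA counts. Levels are given in CPM, the count of an arm for each 1000000 miRNA counts of its library, and a level is therefore a share of all miRNA counts. MiR-143, the most abundant miRNA and a product of smooth muscle and pericytes, took from 15.9 to 42.5% of the counts, with medians in CONT of 18.9% for HOLS and 27.4% for MONT and in REST of 23.2% and 30.5%. In these bulk biopsies, fewer cells of a type and less RNA per cell cannot be told apart. Only miRNAs were measured here, so the endothelial origin of miR-126 was not checked against other endothelial markers, and the miRNAs of the vascular list below are not particular to endothelium.

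MiR-126-5p was among the leading miRNAs by count in every library. Its counts ran from 166622 to 544141, its level from 16587 to 33636 CPM, or from 1.66 to 3.36% of all miRNA counts, and its rank from 8 to 12. MiR-126-3p, from the other side of the same hairpin, ran from 11680 to 48577 counts and from 1594 to 3076 CPM, with ranks from 33 to 49. The highest library exceeded the lowest by 2.03-fold for miR-126-5p and by 1.93-fold for miR-126-3p, so both arms kept within a narrow range of levels across breeds and periods.

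In HOLS CONT the level of miR-126-5p was 28659 CPM in cow 1165, 22672 in cow 8200, 29964 in cow 9195, 26670 in cow 1155 and 23614 in cow 2182. After restriction the same cows had 33636, 26348, 27412, 30618 and 26895 CPM. The level was higher in 4 cows and lower in cow 9195, and the ranges of the 2 periods overlapped. In MONT CONT the lowest, median and highest levels were 20545, 25984 and 28173 CPM, and in MONT REST 16587, 24762 and 28443 CPM. The lowest library of all was the REST library of cow 2614, in which miR-143 took the largest share of counts, 42.5%. The HOLS means were 26316 ± 3142 CPM before and 28982 ± 3086 after restriction (SD, n = 5), and the MONT means 25367 ± 2744 and 23769 ± 4452 (n = 6).

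For miR-126-3p the HOLS CONT levels were 2657 CPM in cow 1165, 2021 in cow 8200, 2589 in cow 9195, 2562 in cow 1155 and 2353 in cow 2182. In HOLS REST they were 3076, 2409, 2307, 2733 and 2923 CPM in the same order. As for the other arm, cow 9195 alone among the HOLS cows had a lower level after restriction. In MONT the lowest, median and highest levels were 1718, 2255 and 2874 CPM in CONT and 1594, 1950 and 2616 CPM in REST. Of the 6 MONT cows, cow 9615 alone had a higher level in REST, 1976 CPM against 1718 in CONT. The HOLS means were 2437 ± 258 CPM before and 2690 ± 328 after restriction (SD, n = 5), and the MONT means 2280 ± 464 and 2028 ± 390 (n = 6). The order of the 4 group means was the same for both arms, HOLS REST, HOLS CONT, MONT CONT and MONT REST from high to low, and neighbours in this order differed by no more than their SD.

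**Figure D1:**
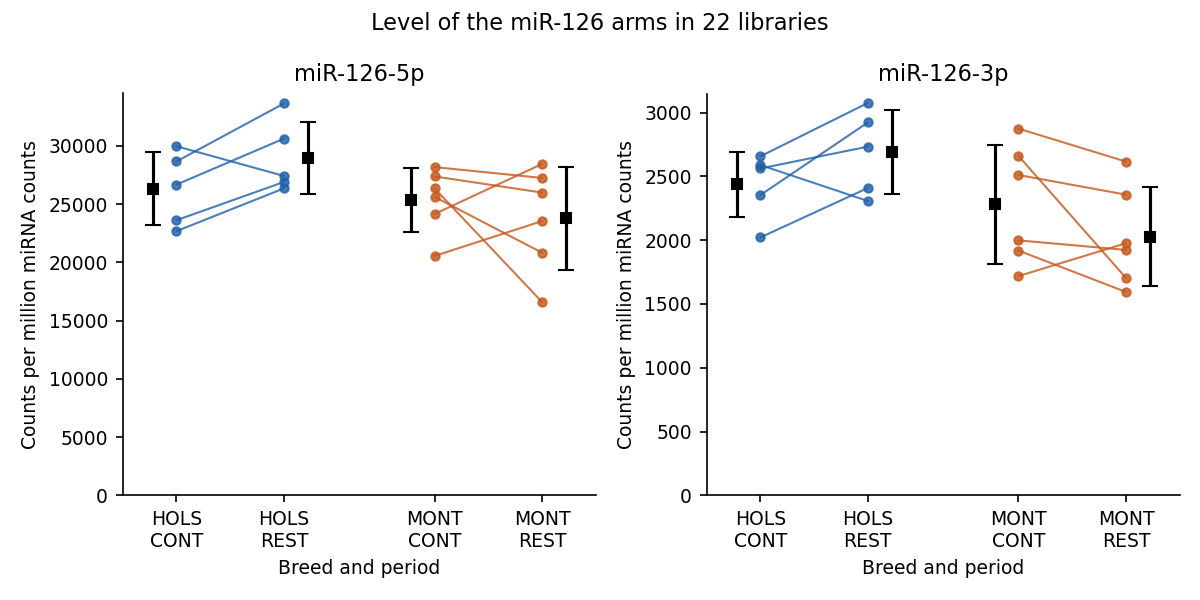
Level of miR-126-5p (left) and miR-126-3p (right) in CPM, by breed and period. Each point is a library, lines join the libraries of a cow, and black squares with bars are the mean and SD of a group (n = 5 in HOLS and 6 in MONT). HOLS REST has the highest group mean for both arms, 28982 and 2690 CPM, and MONT REST the lowest, 23769 and 2028 CPM.

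In HOLS both arms had higher values after feed restriction, by about the same amount, but neither passed the threshold in the fit without cows. On normalized counts, which are counts divided by a size factor for each library within a breed, miR-126-5p averaged 320250 ± 36943 before and 399171 ± 65586 after restriction, and miR-126-3p 29597 ± 2239 and 36883 ± 5283 (SD, n = 5 each). The CONT and REST ranges overlapped, with 285704 to 377647 and 333361 to 491326 for miR-126-5p and 27045 to 32634 and 31255 to 44926 for miR-126-3p. On the log2 scale the change per cow in normalized counts of miR-126-5p was 0.53 in cow 1155, 0.55 in cow 1165, 0.22 in cow 2182, 0.17 in cow 8200 and 0.07 in cow 9195. For miR-126-3p it was 0.43, 0.53, 0.35, 0.21 and 0.03 in the same cows. All 5 cows thus had higher normalized counts of both arms in REST, with a mean change of 0.31 ± 0.22 and 0.31 ± 0.19 (SD, n = 5), while on CPM 4 of 5 did, with means of 0.14 ± 0.15 and 0.14 ± 0.19.

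By the quasi-likelihood test of edgeR, with p-values adjusted after Benjamini and Hochberg, REST against CONT in HOLS gave a log2 fold change of 0.32 for miR-126-5p (SE 0.13, 95% confidence interval 0.04 to 0.59, adjusted p = 0.184) and of 0.32 for miR-126-3p (SE 0.11, interval 0.08 to 0.56, adjusted p = 0.156). An adjusted p of at most 0.05 is called here, and 0 of the 2 arms were called, against 9 of 374 miRNAs tested, or 2.41%, all lower in REST. The unadjusted p-values of this test were 0.0284 and 0.0138. With the cow as a block, the values were 0.31 for both arms, miR-126-3p was called (adjusted p = 0.0474) and miR-126-5p was not (adjusted p = 0.0570), in a fit that called 16.3% of miRNAs and 8.02% as higher. The call of miR-126-3p with the block was lost when any cow was left out, the adjusted p then being 0.0580 to 0.175. With library size as the only scaling the log2 fold change was 0.14 for both arms (adjusted p = 0.514 and 0.516), and the median of all miRNAs stood at -0.15, so that relative to this median both arms were at 0.29, as in the TMM-scaled fit.

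Markers of other cell types also differed between the periods in HOLS. In the fit with the block both miRNAs of the smooth muscle and pericyte list were higher in REST, miR-143 by 0.46 and miR-145 by 0.26, as were 2 of 5 leukocyte miRNAs, miR-155 by 0.54 and miR-142-5p by 0.33, and 3 of 8 epithelial miRNAs, miR-200b, miR-200c and miR-429 of the miR-200 family, were lower, at -0.55, -0.43 and -0.28. Over all 374 miRNAs tested this fit called 8.02% as higher and 8.29% as lower, and the lists are small. Of the red blood cell list, miR-486 was called higher at 0.42 (adjusted p = 0.0474), while miR-451 and miR-144, the defining members, had values of -0.14 and -0.13 and were not called. Without the block edgeR called none of these list members, while DESeq2 called miR-143, miR-155, miR-200b and miR-200c, in the same directions. Over all 374 miRNAs DESeq2 called 26, with 7 higher and 19 lower. The 4 fibroblast miRNAs had values of 0.24 to 0.36 with the block, a median of 0.30, and 3 of them an unadjusted p under 0.05, but none was called, miR-199a-3p standing at an adjusted p of 0.0508 by edgeR. The summed level of the smooth muscle list averaged 187728 CPM in HOLS CONT and 228765 in HOLS REST, and that of the epithelial list 45465 and 39590 CPM. Nearly all of the smooth muscle sum is miR-143, with means of 187331 and 228342 CPM, against 396 and 422 CPM for miR-145. Most of the epithelial sum is miR-141, with means of 31865 and 29358 CPM, and its fitted change with the block was 0.0068. CPM of the 2 periods also differ by the shift of -0.15 in the median of all miRNAs given above, which the TMM-scaled values do not hold. MiR-205 at 0.10 and miR-183 at 0.0012 were not lower either, so the lower values of the list are those of some members. No marker was at 0 in any group, and the part of these cell types in the values of miR-126 was not tested.

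In MONT neither arm was called, and the cows differed in direction. The change per cow in log2 normalized counts of miR-126-5p was 0.13 in cow 1613, -0.04 in cow 1640, -0.50 in cow 1652, -0.37 in cow 2614, 0.01 in cow 5663 and 0.36 in cow 9615. That of miR-126-3p was -0.20, -0.12, -0.26, -0.34, -0.19 and 0.36 in the same cows. MiR-126-5p was thus higher in 3 of 6 cows, and miR-126-3p lower in 5 of 6, all but cow 9615, with means of -0.07 ± 0.32 and -0.12 ± 0.25 (SD, n = 6). The edgeR quasi-likelihood test gave -0.04 for miR-126-5p (SE 0.16, interval -0.39 to 0.32, adjusted p = 0.898) and -0.12 for miR-126-3p (SE 0.16, interval -0.47 to 0.23, adjusted p = 0.695). Of the 349 miRNAs tested 0.0% were called, with 47 at an unadjusted p under 0.05, and DESeq2 called 0 as well.

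The libraries of cow 9615 stood apart from those of the other MONT cows. Their deviations from the group means correlated at -0.33 over 349 miRNAs, against 0.07 to 0.76 in the other 5 cows. Its level of miR-199a-3p, a miRNA of fibroblasts, was 1607 CPM in CONT and 693 in REST, whereas in the other 5 cows it was higher in REST. Without this cow, the log2 fold change in MONT was -0.14 for miR-126-5p (adjusted p = 0.593) and -0.24 for miR-126-3p (adjusted p = 0.310), and edgeR called 46 of 358 miRNAs. With the cow as a block as well edgeR called 140 of 358, miR-126-3p was at -0.24 with an unadjusted p of 0.0301 and an adjusted p of 0.0661 by edgeR, and miR-126-5p at -0.17 (adjusted p = 0.298).

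**Figure D2:**
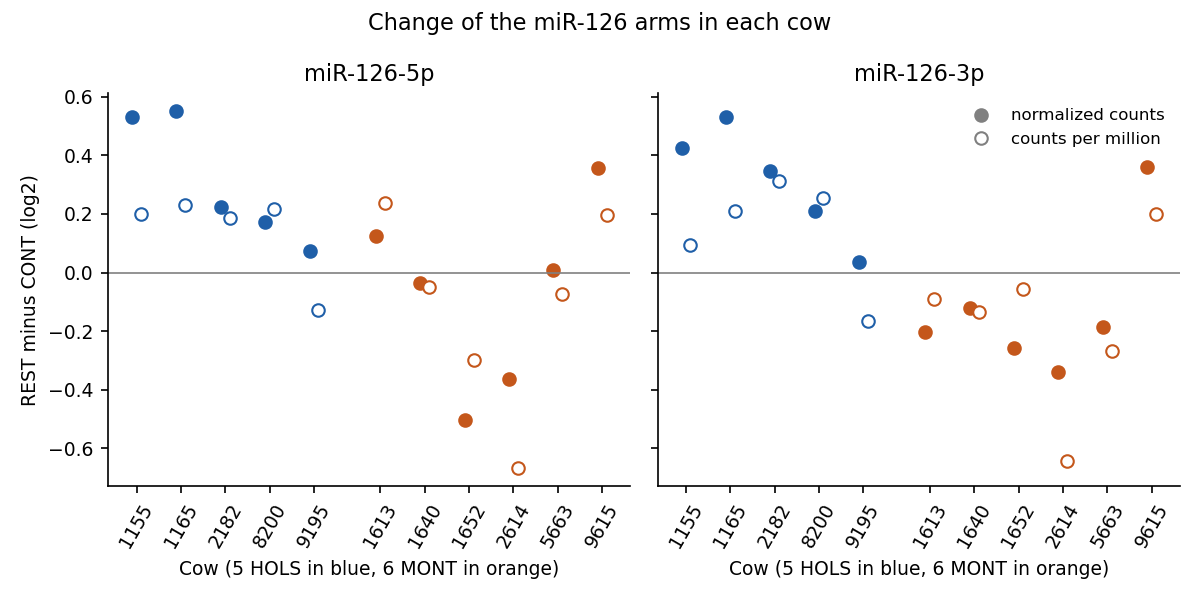
Change from CONT to REST in each cow on the log2 scale for miR-126-5p (left) and miR-126-3p (right), on normalized counts (filled) and on CPM (open), with HOLS in blue and MONT in orange. On normalized counts all 5 HOLS cows lie above 0 for both arms, and for miR-126-3p 5 of 6 MONT cows lie below 0, with cow 9615 at 0.36.

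Whether the breeds responded differently was tested with an interaction term in 1 fit of all 22 libraries. The change in MONT minus that in HOLS was -0.30 for miR-126-5p (SE 0.22, interval -0.76 to 0.16, unadjusted p = 0.194 by edgeR) and -0.38 for miR-126-3p (SE 0.20, interval -0.79 to 0.04, unadjusted p = 0.0733 by edgeR), with an adjusted p of 0.991 for both. Of the 388 miRNAs tested 0.0% were called by edgeR, and 3 had an unadjusted p under 0.05. With the cow as a block miR-126-3p was at -0.39 (unadjusted p = 0.0372, adjusted p = 0.985 by edgeR). The interval of miR-126-3p without the block includes 0, while that with the block, -0.74 to -0.03, and that with DESeq2 size factors, -0.85 to -0.0084, do not. No difference between the breeds in the change of either arm passed the adjusted threshold.

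Between the breeds, the arms stood close in CONT and miR-126-3p was lower in MONT in REST. In CONT the log2 difference of MONT against HOLS was -0.07 for miR-126-5p (SE 0.16, interval -0.39 to 0.26, adjusted p = 0.842 by edgeR) and -0.12 for miR-126-3p (SE 0.14, interval -0.41 to 0.17, adjusted p = 0.669), and neither was called, against 7.47% of 388 miRNAs (3.09% higher and 4.38% lower in MONT). In REST miR-126-3p was lower in MONT by the edgeR quasi-likelihood test, at -0.49 (SE 0.14, interval -0.79 to -0.20, adjusted p = 0.0248), or 0.710 of the HOLS level. MiR-126-5p in REST was at -0.37 (SE 0.16, interval -0.69 to -0.04, adjusted p = 0.112) and was not called. In this comparison 13.7% of 388 miRNAs were called, 8.76% as higher and 4.9% as lower in MONT. The CPM ranges of the breeds in REST overlapped, with 2307 to 3076 in HOLS and 1594 to 2616 in MONT for miR-126-3p, the MONT cows 1640 and 1613 lying within the HOLS range.

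The call of miR-126-3p in REST was lost with library size as the only scaling (-0.41, adjusted p = 0.0761), where the median of all miRNAs stood at 0.16, and without cow 1165 (adjusted p = 0.0670), cow 1652 (0.0629) or cow 5663 (0.0514). Without cow 9615, miR-126-3p was at -0.55 (adjusted p = 0.00448 by edgeR) and miR-126-5p was called as well, at -0.43 (adjusted p = 0.0329). The fit of all 22 libraries takes both libraries of a cow as independent. With the REST libraries only, miR-126-3p was called at -0.53 (adjusted p = 0.0300 by edgeR), and miR-126-5p was not, at -0.40 (adjusted p = 0.120). The breeds were deposited in separate tables, so that breed and anything that differed between the tables cannot be told apart. The paper describes the MONT libraries as lower in quality than those of HOLS, with more short and adapter reads. The part of this in the breed differences was not tested.

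**Figure D3:**
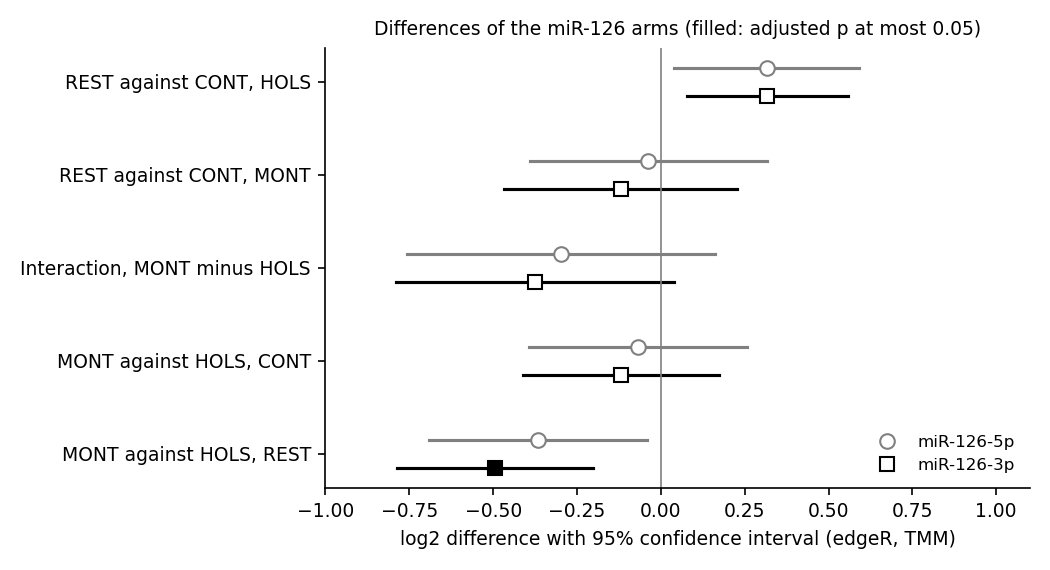
Log2 differences of miR-126-5p (circles) and miR-126-3p (squares) in the 5 comparisons, with 95% confidence intervals from edgeR after TMM scaling. MiR-126-3p in REST, MONT against HOLS, at -0.49 is the single filled symbol, marking an adjusted p of at most 0.05.

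Marker lists differed between the breeds in REST too. Of the 4 fibroblast miRNAs edgeR called 3 as higher in MONT REST than in HOLS REST, miR-199a-3p by 0.99 (adjusted p = 0.0132), miR-199a-5p by 0.997 (adjusted p = 0.0261) and miR-214 by 1.19 (adjusted p = 0.0421 by edgeR). Over all 388 miRNAs tested 8.76% were called as higher and 4.9% as lower. The summed fibroblast level was 813 to 1454 CPM in HOLS REST and 1087 to 4106 CPM in MONT REST. Of the 8 epithelial miRNAs miR-141, of the miR-200 family, was lower in MONT (-1.03, adjusted p = 0.0494) and miR-205, a miRNA of basal epithelium, was higher (0.62, adjusted p = 0.0132), and the summed level was 27846 to 50624 CPM in HOLS REST and 15316 to 30915 in MONT REST. The 3 red blood cell miRNAs were not called, with -0.55 for miR-451, -0.37 for miR-486 and -0.30 for miR-144. No member of the leukocyte, smooth muscle or skeletal muscle lists was called in this comparison by edgeR or DESeq2. In MONT, REST against CONT, neither tool called a member of any marker list, and 6 members had an unadjusted p under 0.05 by edgeR, as had 47 of all 349 miRNAs. The uncalled values were not smaller than in HOLS. By edgeR without the block the fibroblast median was 0.69 in MONT and 0.29 in HOLS, with all 4 members above 0 in both. The epithelial medians were -0.34 and -0.12, with 2 and 3 of 8 members above 0, and the red blood cell medians -0.75 and -0.09. Between the breeds in CONT edgeR called no marker list member, with 5 at an unadjusted p under 0.05. DESeq2 called miR-143 as higher in MONT, at 0.59, where it called 33 of 388 miRNAs, 18 of them higher. The other member of its list, miR-145, had a value of -0.27 by DESeq2 and was not called, so the members of this list differed in direction. The part of these cell types in the lower miR-126-3p was not tested.

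**Figure D4:**
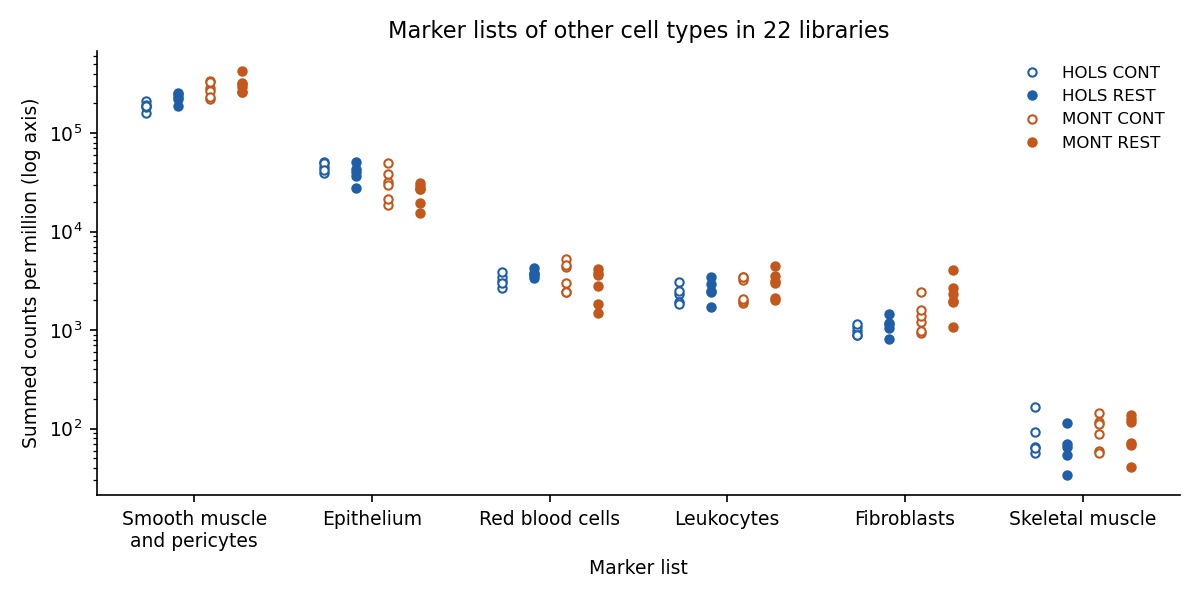
Summed level of the miRNAs of 6 marker lists in each library, in CPM on a log axis, with HOLS in blue, MONT in orange, CONT open and REST filled. The fibroblast list is at 1087 to 4106 CPM in MONT REST against 813 to 1454 in HOLS REST, and the epithelial list at 15316 to 30915 against 27846 to 50624. The smooth muscle sum is nearly all miR-143, and most of the epithelial sum is miR-141.

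The ratio of the arms is taken within a library and needs no scaling between libraries. There were 6.13 to 10.9 counts of miR-126-3p for each 100 counts of miR-126-5p, and the 5p arm had more counts than the 3p arm in all 22 libraries, by 9.20 to 16.3-fold. The arms differ in sequence, and whether their counts reflect their relative amounts in the tissue was not tested. The mean ratio of the HOLS libraries was 9.28 ± 0.53 before and 9.30 ± 0.93 after restriction (SD, n = 5), and that of the MONT libraries 8.98 ± 1.44 and 8.66 ± 1.44 (n = 6). On the log2 scale the counting error of a library was 0.0068 to 0.0138, against an SD of 0.19 over the libraries, so the libraries differed by far more than the counting error.

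In HOLS the ratio went from 9.27 to 9.14 counts per 100 in cow 1165, from 8.92 to 9.14 in cow 8200, from 8.64 to 8.42 in cow 9195, from 9.61 to 8.93 in cow 1155 and from 9.97 to 10.9 in cow 2182. The mean log2 change was -5.1e-04 ± 0.087 (SD, n = 5), with 2 cows higher and 3 lower, and the two-sided exact sign-flip permutation test gave p = 0.938, where 5 cows cannot give less than 0.063. In MONT it went from 7.01 to 6.13 in cow 5663, from 8.36 to 8.39 in cow 9615, from 10.4 to 8.29 in cow 1613, from 10.2 to 9.60 in cow 1640, from 7.80 to 9.24 in cow 1652 and from 10.1 to 10.3 in cow 2614. The mean log2 change was -0.06 ± 0.20 (SD, n = 6), with 3 cows higher and 3 lower (exact sign-flip permutation p = 0.5, the smallest possible being 0.03125). Cow 5663 had the lowest ratio of all cows in both periods.

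No shift of the ratio between the breeds was detectable either. The cow means of log2(3p/5p) were -3.43 ± 0.10 in the 5 HOLS cows and -3.52 ± 0.23 in the 6 MONT cows, a difference of -0.09 (two-sided exact permutation p = 0.494). The changes with restriction differed by -0.06 between MONT and HOLS (two-sided exact permutation p = 0.584).

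**Figure D5:**
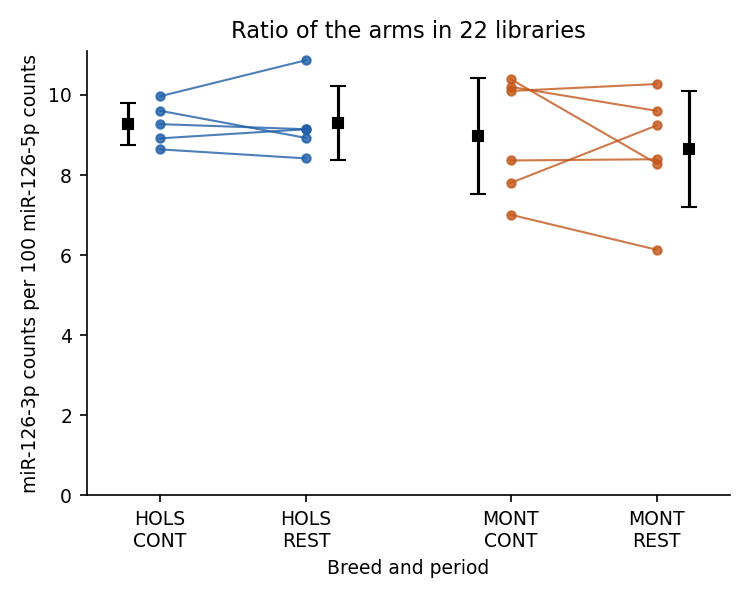
Counts of miR-126-3p per 100 counts of miR-126-5p in each library, by breed and period. Lines join the libraries of a cow, and black squares with bars are the mean and SD (n = 5 in HOLS and 6 in MONT), which run from 8.66 in MONT REST to 9.30 in HOLS REST.

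Set beside other hairpins, the arms of miR-126 were among those with the steadiest ratio. Of 12 hairpins with both arms named and at a mean of at least 10 CPM, 7 had the 5p arm higher in counts, miR-126 included. The SD of log2(3p/5p) over the 22 libraries was 0.193 for miR-126, behind 0.191 for miR-151 and 0.192 for miR-199a, and ran to 0.685 for miR-423, with a median of 0.379. This order is a description, and ratios with a rare arm carry more counting error.

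The miRNAs whose normalized counts followed the arms most closely were ranked by the lower of the Pearson r within HOLS (10 libraries) and within MONT (12 libraries) over 347 candidates. The libraries share cows, periods and size factors, so these r are descriptions. The closest to miR-126-5p were miR-151-3p (0.72 in HOLS and 0.73 in MONT), miR-486, a miRNA of red blood cells and muscle (0.70 and 0.80), and the unannotated predictions chr16_17042_mature and chr10_11288_mature, which had identical counts and are 1 measurement at a mean of 1.70 CPM (0.68 and 0.88), followed by miR-592 (0.63 and 0.62). For miR-126-3p the closest was miR-126-5p (0.90 in HOLS and 0.56 in MONT), then miR-486 (0.64 and 0.56), the same predictions (0.51 and 0.67) and miR-215 (0.46 and 0.79). The arms followed each other more closely in HOLS than in MONT as numbers, a difference that was not tested, and miR-126-3p was only ninth in the order for miR-126-5p.

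Other miRNAs described in endothelial growth and vessel formation, many of them also made in epithelium, were taken as a vascular list of 16, of which 15 were tested. In HOLS, REST against CONT, 0 were called by edgeR without the block, 5 had an unadjusted p under 0.05 and 10 had values above 0. The median log2 fold change was 0.11 against 0.02 over all miRNAs tested. DESeq2 called 1, miR-222, as higher, where it called 26 of 374 miRNAs, 7 of them higher. With the block 3 of 15 were called, in a fit that called 16.3% of all miRNAs, so this share is near the background. Of these 2 were higher, miR-10a by 0.50 (adjusted p = 0.0282) and miR-222 by 0.48 (adjusted p = 0.0216), and 1 lower, miR-18a of the miR-17-92 cluster (-0.47, adjusted p = 0.0430). In MONT 0 were called by edgeR and 0 by DESeq2, 2 had an unadjusted p under 0.05, and the median was 0.18 against -0.01 over all miRNAs tested. Between the breeds in REST edgeR called 3 of 15, all higher in MONT, against 13.7% of all miRNAs in either direction and 8.76% as higher. The share is near the background of both directions and above that of higher calls, but rests on 3 members. They were miR-221 by 0.85 (adjusted p = 0.0182), its cluster partner miR-222 by 0.75 (adjusted p = 0.0349) and miR-130a by 0.61 (adjusted p = 0.0279). The list median was 0.16 against 0.06 over all miRNAs. DESeq2 called 4 of the 15 members higher and 2 lower in this comparison, where it called 85 of 388 miRNAs, 48 higher and 37 lower. The list is small, and its share was not tested.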

How the data were processed

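Small RNA libraries (TruSeq) were sequenced by the authors, who trimmed adapters, kept reads by size, quantified reads with ncPRO-seq and used miRDeep2 with the bovine btau5.0.1 genome and miRBase. The deposited values used here are raw counts per miRNA, 1 table per breed. The submitters' processing notes also name DESeq2 1.18.1 and bcl2fastq 2.17.1.14. How reads shared by near-identical miRNAs were counted is not given in the sources used here. The deposited tables also hold normalized counts and the authors' own means, fold changes and p-values, which were not used.

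Counts were tested with edgeR 4.0.16 (R 4.3.3) across all miRNAs, with TMM scaling, filterByExpr (minimum count 10), the quasi-likelihood F test and Benjamini-Hochberg adjustment, at a threshold of 0.05, within each breed for the period and over all 22 libraries between breeds. Both arms passed the filter in every fit. Normalized counts were recomputed with size factors of DESeq2 1.42.0 within each breed, and log2 changes per cow used a pseudocount of 1. Arm ratios were compared with exact permutation tests (Python 3.11.15, scipy 1.17.1). PCR reads carry no molecular identifiers, so counting errors cover counting only. The fits without the block were tried on simulated counts of independent libraries with log2 changes of 1, larger than those of the arms. The fits with the block were not simulated. The exact tests were checked on values with known answers.

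Per the labels, both libraries that share a number are from 1 animal. Their deviations from the group means correlated at 0.25 to 0.54 in HOLS and at -0.33 to 0.76 in MONT. Since no block is described in the study's methods, unblocked fits come first. Each cow gave 1 library per period. Without the block, p-values within a breed rest on the spread between cows in each period, and both libraries of a cow are taken as independent. The same holds for the breed differences from the fit of all 22 libraries, but not for fits with the libraries of 1 period only. With the block, p-values rest on how the change from CONT to REST differed between cows.

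Alternatives were DESeq2, limma-voom 3.58.1, other scalings, no filter, the cow as a block, library sizes without miR-143, a pseudocount for the ratio, the libraries of 1 period only, and each cow left out in turn, also together with the block, which was added after seeing the data. The members and lists were chosen with earlier results of these data known. Named beside the arms were the 5 miRNAs most like each by r, miR-143, and of each list the members past the threshold, up to 4 by size, or else the most abundant. The values of cow 9615 and of miR-199a-3p in it, and of list members that were not called, were chosen for mention after they were seen. MiR-203, miR-206 and miR-23b-3p of the lists were not analysed here.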

Additional observations from a re-analysis of the deposited data

Results flagged for a closer look

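The log2 change of miR-126-3p in cow 9615, 0.36, stood apart from the other 5 MONT cows, which lay between -0.34 and -0.12. Its gap to the nearest cow was 0.690 of the range of the group, above Dixon's 95% critical value of 0.625 for 6 samples. Of 26 groups of values examined in this way 1 was set apart, and chance alone sets apart about 1 in 20.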

How the results depend on the processing

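Beside the values of the main tests, 179 values under other settings, and 21 under settings added after seeing the data, kept direction and side of the threshold. With the cow as a replicate block, miR-126-3p in HOLS was called (0.31, adjusted p = 0.0474 by edgeR), and the block changed no other call of either arm. With library size only, miR-126-3p of MONT against HOLS in REST was not called (-0.41). With library sizes without miR-143 the value of miR-126-5p in MONT was 0.0097 and turned sign, far inside its SE of 0.15. The cause of these changes was not tested.

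With each cow left out in turn, the log2 values of miR-126-5p and miR-126-3p ran from 0.24 to 0.35 and from 0.24 to 0.36 in HOLS, and from -0.14 to 0.044 and from -0.24 to -0.04 in MONT. Together with the replicate block they ran from 0.23 to 0.34 and from 0.24 to 0.35 in HOLS, and from -0.17 to 0.022 and from -0.24 to -0.05 in MONT. For MONT against HOLS they ran from -0.12 to 0.012 and from -0.15 to -0.04 in CONT, and from -0.50 to -0.27 and from -0.63 to -0.41 in REST, with adjusted p of 0.0329 to 0.256 and of 0.00448 to 0.0670 by edgeR. MiR-126-5p in MONT turned sign without cow 1640 (0.0013), 1652 (0.012) or 2614 (0.044), and in CONT between breeds without cow 9195 (0.012). The log2 arm ratio change ran from -0.032 to 0.026 in HOLS, turning sign without cow 1155, 1165 or 9195, and from -0.12 to -0.0012 in MONT. Taking the libraries as unpaired, the exact permutation p of the arm ratio was 0.984 in HOLS and 0.703 in MONT.

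The number of miRNAs called in HOLS was 9, against 26 by DESeq2, 17 by limma-voom, 20 with library size only, 5 with no filter, 61 with the block and 3 to 14 with a cow left out. In MONT it was 0, against 46 without cow 9615 and 140 without this cow and with the block. Between the breeds it was 29 in CONT, against 15 by limma-voom, 3 with library size only, 3 with no filter, 2 with the libraries of that period and 0 to 31 with a cow left out, and 53 in REST, against 85 by DESeq2 and 16 to 101 with a cow left out. With 5 cows, a log2 fold change of 0.32 in HOLS did not pass the adjusted threshold for either arm in the fit without the block. With the block miR-126-3p passed it, at 0.31 (adjusted p = 0.0474 by edgeR), and miR-126-5p did not.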
